A study of Arabidopsis thaliana with 18 samples.

Results

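OCT5 (ORGANIC CATION/CARNITINE TRANSPORTER 5, locus AT1G79410) is a membrane carrier gene of Arabidopsis thaliana on chromosome 1. It was followed through the 1 probe set of 22810 on the array whose annotation names OCT5 and no other gene, and it is 1 of 13350 genes with a probe set of their own. OCT5 was chosen by its measured intensities in all 6 groups of the study, so its levels and differences are given as a description, with no test.

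The study measured RNA on 18 single-colour Affymetrix arrays in 6 groups of 3 independent replicates. The groups were the triple mutant tga2-5-6 with PPA1, Col-0 with PPA1, tga2-5-6 with OPDA, Col-0 with OPDA, tga2-5-6 with solvent and Col-0 with solvent. The mutant lacks function of the transcription factors TGA2, TGA5 and TGA6, and Col-0 is the accession it was set against. PPA1 (phytoprostane A1) and OPDA (oxo-phytodienoic acid) were given at 75 µM and the solvent control was 0.5% methanol in water, all for 4 h. The labels name no organ, age or growth conditions. The study asked which genes that respond to these compounds depend on the TGA factors.

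OCT proteins belong to the major facilitator superfamily and resemble the organic cation and carnitine transporters of animals. In Arabidopsis, OCT1 lies at the plasma membrane and has been linked to carnitine transport, while tagged OCT4, OCT5 and OCT6 were located at the membrane of the vacuole. TGA factors are bZIP transcription factors that act in salicylic acid defence and in the switching on of detoxification genes. OPDA is made from α-linolenic acid by enzymes and is the precursor of jasmonic acid. Phytoprostanes arise by oxidation of α-linolenic acid with no enzyme involved. Both compounds hold a cyclopentenone ring, and PPA1 has a hydroxyl group on a side chain where OPDA has none.

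On every array the deposited intensities had been scaled to a common level, with a trimmed mean of 500.05 to 500.06. Median intensity was 159 to 185 per array, and 14.5% to 18.0% of probe sets lay below 16. Log2 values correlated at 0.900 to 0.935 between arrays of 1 group and at 0.868 to 0.926 between arrays of different groups. The actin 3'/5' ratio, a measure of RNA integrity and labelling, was 48.3 ± 16.8 in tga2-5-6 with solvent and 34.4 ± 11.7 in Col-0 with solvent (SD, n = 3 each). In the 4 groups given a compound its mean was 28.1 to 30.4. The GAPDH 3'/5' ratio was far lower, at 0.87 to 1.99 over all arrays. TGA2, TGA5 and TGA6 had 0 probe sets annotated to them alone, so they could not be used to check the genotype labels.

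OCT5 had its highest intensities in Col-0 given PPA1, at 1036, 1145 and 1556 in the 3 replicates (mean 1246 ± 275, SD, n = 3). In tga2-5-6 given PPA1 the 3 arrays read 53.5, 63.2 and 88.6 (68.4 ± 18.1). Every mutant array with PPA1 thus lay far below every Col-0 array with PPA1.

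With OPDA, OCT5 read 53.0, 55.5 and 57.4 in tga2-5-6 (55.3 ± 2.23, SD, n = 3). Col-0 arrays with OPDA read 421, 428 and 535 (461 ± 64.0). The mutant arrays lay close together and again did not overlap with Col-0.

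With solvent, OCT5 read 82.6, 40.1 and 87.2 in tga2-5-6 (70.0 ± 25.9, SD, n = 3). Col-0 arrays with solvent read 326, 383 and 301 (337 ± 42.4). The second mutant replicate was the lowest of all 18 arrays, and the 3 solvent arrays of the mutant spread more, relative to their mean, than those of any other group. Arranged by mean, the groups ran upward from tga2-5-6 with OPDA through tga2-5-6 with PPA1, tga2-5-6 with solvent, Col-0 with solvent and Col-0 with OPDA to Col-0 with PPA1. Among neighbours in that order, the mutant groups overlapped one another, whereas the gaps above them were free of overlap.

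**Figure D1:**
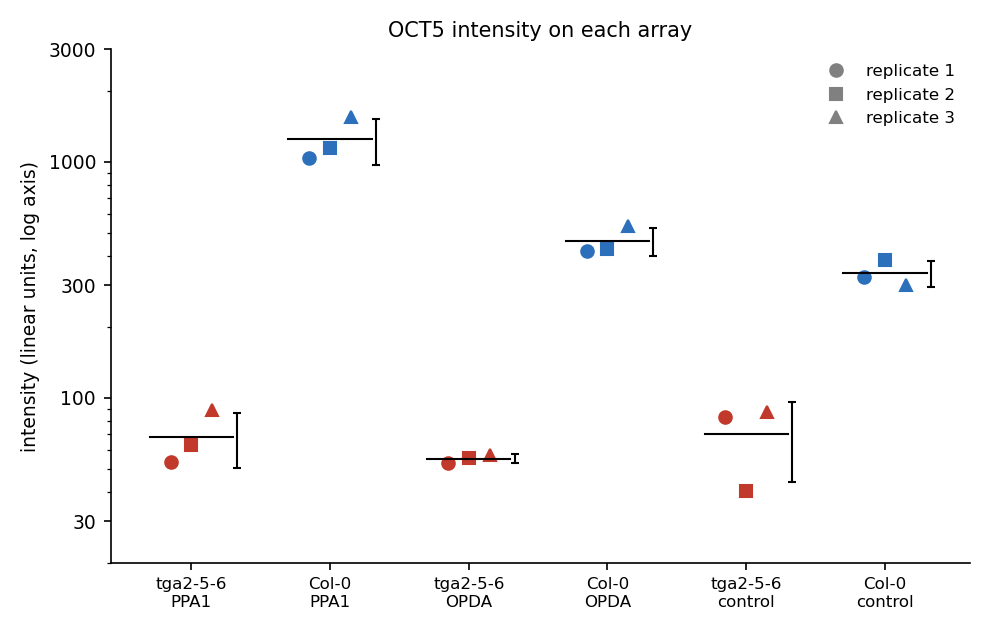
OCT5 intensity (log axis) on each of the 18 arrays, by group; points are replicates, horizontal lines group means and vertical bars ± 1 SD. The 9 mutant arrays lie between 40.1 and 88.6, and the 9 Col-0 arrays lie between 301 and 1556.

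The gap between the genotypes was widest with PPA1. OCT5 was 18.3-fold lower in tga2-5-6 than in Col-0 with PPA1, a log2 difference of -4.20 ± 0.27 (SE of the fit to all 18 arrays). With OPDA it was 8.29-fold lower (-3.05 ± 0.27), and with solvent 5.06-fold lower (-2.34 ± 0.27). In bulk samples such as these, fewer cells of a type and less RNA per cell cannot be told apart.

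Single pairs of arrays show the same ordering of sizes. Over the 9 pairings of a mutant with a Col-0 array, the mutant's OCT5 intensity was 0.0344 to 0.0855 of the Col-0 value with PPA1. It was 0.0990 to 0.137 with OPDA and 0.105 to 0.290 with solvent. The PPA1 ratios therefore lay below all ratios of the other treatments, whose ranges overlapped each other.

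Complete separation of 3 arrays from 3 is common in this dataset. All 3 mutant arrays lay below all 3 Col-0 arrays for 9.39% of the 21869 probe sets kept after filtering with PPA1, for 7.82% with OPDA and for 7.73% with solvent. The size of the OCT5 difference was less common. Counted from the most negative difference, OCT5 stood at place 20 of 21869 with PPA1, at place 62 with OPDA and at place 99 with solvent. These places follow from the values on which OCT5 was picked. The median difference of all kept probe sets was -0.02 with PPA1, 0.00 with OPDA and 0.05 with solvent. With solvent the mean actin ratio given above was higher in tga2-5-6, with overlapping arrays (33.8 to 66.6 against 24.9 to 47.4 in Col-0). Its part in the OCT5 difference was not tested.

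Within Col-0, OCT5 stood 3.66-fold higher with PPA1 than with solvent (log2 difference 1.87 ± 0.27). Each of the 9 pairings of a PPA1 with a solvent array had the higher value with PPA1, by 2.70-fold to 5.18-fold. All 3 PPA1 arrays exceeded all 3 solvent arrays for 9.66% of kept probe sets. By size, the OCT5 difference was at place 611 of 21869 from the highest, so many probe sets differed more.

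The OPDA difference in Col-0 was smaller. OCT5 stood 1.37-fold higher with OPDA than with solvent (0.45 ± 0.27), with pairings of 1.10-fold to 1.78-fold, all 9 above 1. Such a separation was found for 9.94% of kept probe sets, and the difference was at place 3815 from the highest. PPA1 against OPDA in Col-0 gave 2.68-fold (1.42 ± 0.27), with pairings of 1.94-fold to 3.70-fold. All 3 PPA1 arrays exceeded all 3 OPDA arrays for 12.8% of kept probe sets.

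In tga2-5-6 the OCT5 readings with each compound overlapped those of the solvent arrays. PPA1 against solvent gave a log2 difference of 0.02 ± 0.27, with 5 of 9 pairings higher with PPA1 and ratios of 0.614 to 2.21. OPDA against solvent gave -0.26 ± 0.27, with 3 of 9 pairings higher with OPDA and ratios of 0.608 to 1.43. Between the compounds the difference was 0.28 ± 0.27, with 7 of 9 pairings higher with PPA1. These errors are standard errors, so a difference larger than them could also have been missed, since the number of arrays limits the precision.

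The responses were also set against each other between the genotypes. The PPA1 response of OCT5 on the log2 scale was lower in tga2-5-6 than in Col-0 by a difference of -1.86 ± 0.39. For the OPDA response it was -0.71 ± 0.39. The PPA1 value was at place 1428 of 21869 from the lowest, and the OPDA value at place 3339. The comparisons of 1 genotype share their solvent arrays, so an unusual solvent array enters both responses. Without replicate 2 of tga2-5-6 with solvent, the array with the lowest OCT5 value, the differences in response were -2.22 with PPA1 and -1.07 with OPDA.

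**Figure D2:**
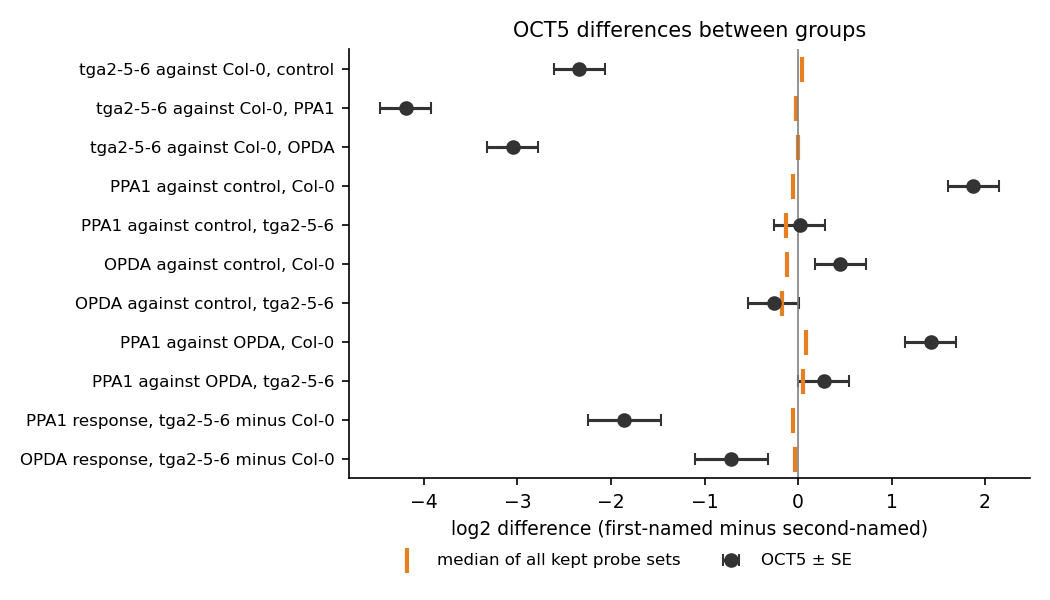
Log2 differences of OCT5 ± SE in the 11 comparisons, beside the median of all 21869 kept probe sets in the same comparison. The 3 comparisons of tga2-5-6 against Col-0 lie at -2.34 or lower, and the 3 comparisons within tga2-5-6 lie between -0.26 and 0.28.

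Few probe sets shared the whole arrangement. All 9 Col-0 arrays lay above all 9 mutant arrays for 47 kept probe sets (0.215%), and all 3 Col-0 arrays with PPA1 lay above the other 15 arrays for 249 (1.14%). Both held for 16 probe sets (0.0732%), OCT5 among them. Of these, 6 are annotated to 1 gene: OCT5, AER, AT5G16980, AT1G21680, IAGLU and UGT74D1. Since OCT5 was picked for its levels, its place in this count is no finding.

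The rest of the OCT family was measured in part. Of the 5 other members, OCT1 and OCT4 had a kept probe set of their own, and OCT2, OCT3 and OCT6 were not analysed here. Between tga2-5-6 and Col-0, 0 of these 2 genes passed in any treatment with limma (adjusted p under 0.05 and at least 2-fold), and 0 had an unadjusted p under 0.05. Over all kept probe sets, 1.57% passed with PPA1, 0.787% with OPDA and 0.535% with solvent.

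OCT4, placed at the vacuolar membrane like OCT5, read 77.4, 64.3 and 96.8 in tga2-5-6 with PPA1 and 98.0, 96.8 and 112 in Col-0 with PPA1. All 3 mutant arrays lay below all 3 Col-0 arrays, the nearest by a margin that rounding hides, as for 9.39% of kept probe sets. The log2 difference was -0.38 ± 0.23 (95% interval -0.88 to 0.12, adjusted p = 0.552). With OPDA, OCT4 averaged 131 ± 29.7 in tga2-5-6 and 131 ± 7.37 in Col-0 (SD, n = 3 each), a difference of -0.02 (-0.52 to 0.48, adjusted p = 0.985). With solvent it averaged 53.4 ± 6.91 in tga2-5-6 and 71.8 ± 22.4 in Col-0, a difference of -0.39 (-0.89 to 0.11, adjusted p = 0.546). None of these intervals reaches the 2-fold threshold, so a drop as large as that of OCT5 lies outside them.

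Across treatments the OCT4 means were highest with OPDA in both genotypes, whereas the OCT5 mean was highest with PPA1 in Col-0. In tga2-5-6 it read 97.2, 151 and 147 with OPDA and 59.4, 45.9 and 55.0 with solvent, and it rose 2.43-fold (1.28 ± 0.23, adjusted p = 0.00306). That was 1 of the 2 family genes, where 6.47% of all kept probe sets passed. In Col-0 it read 129, 140 and 125 with OPDA and 94.8, 49.9 and 70.7 with solvent. The Col-0 difference of 0.92 ± 0.23 had an adjusted p of 0.0263 but was under 2-fold. Thus 0 of 2 passed there, where 4.95% of all kept probe sets passed. At an unadjusted p under 0.05 there were 2, with OCT1 in the opposite direction to OCT4. Without Col-0 solvent replicate 1 the OCT4 difference was 1.14 (adjusted p = 0.0129) and passed. The OPDA response of OCT4 differed between the genotypes by 0.36 (95% interval -0.35 to 1.07, adjusted p = 0.884).

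With PPA1 the OCT4 difference from solvent was 0.56 ± 0.23 in tga2-5-6 (adjusted p = 0.197) and 0.55 ± 0.23 in Col-0 (adjusted p = 0.260). No family gene passed in either, with 1 in tga2-5-6 and 2 in Col-0 at an unadjusted p under 0.05. Over all kept probe sets 2.71% passed in tga2-5-6 and 2.5% in Col-0. PPA1 against OPDA gave -0.72 (95% interval -1.22 to -0.22, adjusted p = 0.101) in tga2-5-6 and -0.36 (-0.86 to 0.14, adjusted p = 0.486) in Col-0. For OCT4 the compounds were therefore not separated at the adjusted threshold, and the values with PPA1 lay below those with OPDA, while for OCT5 in Col-0 they lay above. In both genotypes 3.57% of all kept probe sets passed between the compounds.

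OCT1, the plasma membrane member, was near the low end of the array's range. Its 3 readings were 5.42, 2.12 and 5.47 in tga2-5-6 with PPA1, and 3.23, 4.61 and 3.34 in Col-0 with PPA1. With OPDA they were 40.8, 4.61 and 2.07 in tga2-5-6 and 2.65, 16 and 1.51 in Col-0. With solvent they were 2.63, 47.9 and 4.14 in tga2-5-6 and 25.0, 53.2 and 17.0 in Col-0. Most readings lay under 16, the value used to filter low probe sets, and single arrays reached 40 or more in several groups. Over all kept probe sets 0.00915% passed for the genotype difference in PPA1 response and 0% for that in OPDA response. OCT1 passed in 0 of the 11 comparisons, with a lowest adjusted p of 0.187. Between the genotypes it differed by -1.81 with solvent (95% interval -4.40 to 0.78), a range that holds the -2.34 of OCT5. The difference was 0.11 with PPA1 (-2.48 to 2.70) and 0.87 with OPDA (-1.72 to 3.46). Against solvent in Col-0 it was -2.94 with PPA1 (-5.53 to -0.35) and -2.82 with OPDA (-5.41 to -0.23), where OCT5 was higher. Its SE on the log2 scale was 1.20 in the 9 comparisons of groups and 1.70 in the 2 differences in response.

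**Figure D3:**
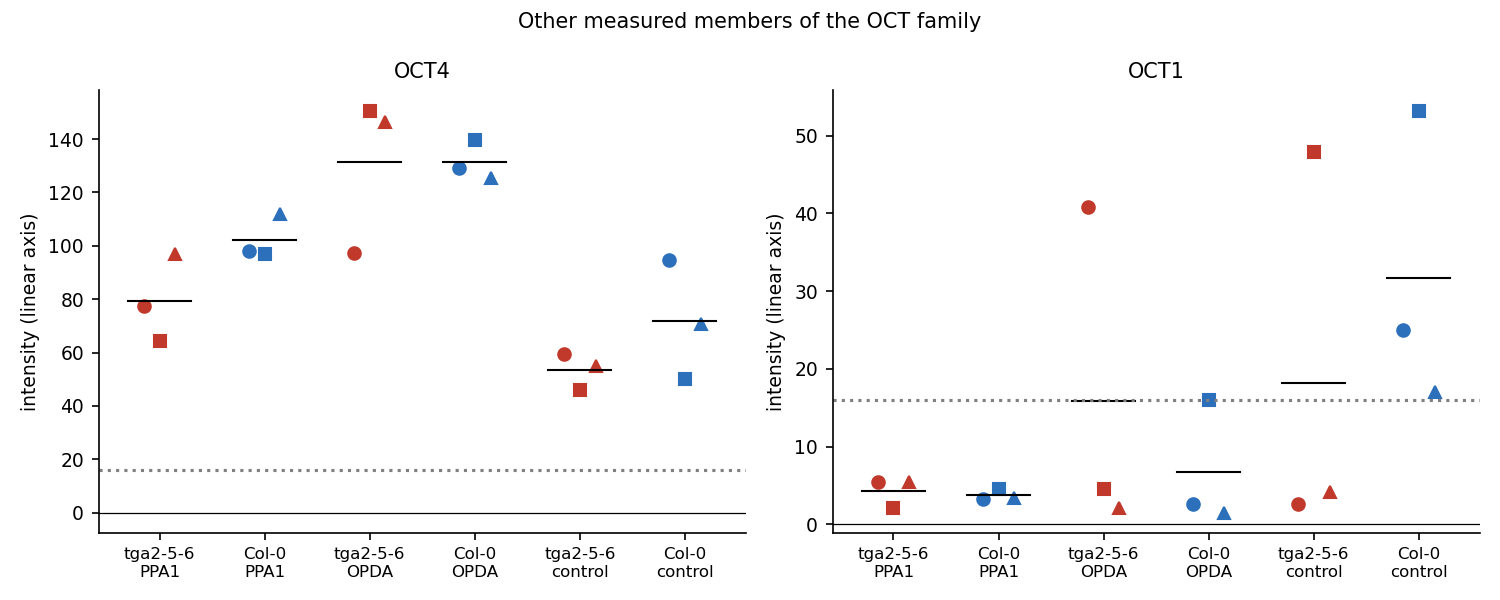
Intensity (linear axis) of OCT4 and OCT1 on each of the 18 arrays, by group; points are replicates with the shapes circle, square and triangle for replicates 1, 2 and 3, horizontal lines are means of 3, and the dotted line is at 16. OCT4 is highest with OPDA in both genotypes, and most OCT1 readings lie under the dotted line.

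Other carriers and the genes of polyamine synthesis, whose products are organic cations, were looked at in 5 lists of 68 genes. Only 10 had a kept probe set of their own: 5 of 13 MATE carriers, which export organic compounds, 3 of 11 polyamine synthesis genes, and 2 of 21 other major facilitator carriers. None of 17 ABC transporters and none of 6 polyamine or carnitine carriers did. Between the genotypes limma passed 0 of these 10 with any treatment, where 1.57% of all kept probe sets passed with PPA1, 0.787% with OPDA and 0.535% with solvent. At an unadjusted p under 0.05 there were 2 with PPA1, 3 with OPDA and 1 with solvent. The share of all kept probe sets at that threshold was not counted, so no excess can be read from these counts. Their median log2 difference was 0.01 with PPA1, -0.11 with OPDA and -0.07 with solvent, against the medians of all probe sets given above.

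The MATE carrier gene DTX14 was the single member of these lists that passed for a compound, 1 of 10 in Col-0 with PPA1 and with OPDA. Over all kept probe sets 2.5% passed in Col-0 with PPA1 and 4.95% with OPDA. In Col-0 it read 370, 480 and 439 with PPA1 and 151, 143 and 194 with solvent, and it rose 2.65-fold (1.41 ± 0.26, adjusted p = 0.00778). With OPDA the Col-0 readings were 552, 389 and 570, and it rose 3.09-fold (1.63 ± 0.26, adjusted p = 0.00154). Unlike OCT5, DTX14 thus had the higher mean with OPDA, though the compounds' arrays overlapped. In tga2-5-6 the differences from solvent were 0.51 ± 0.26 with PPA1 (adjusted p = 0.304) and 0.93 ± 0.26 with OPDA (adjusted p = 0.0327, under 2-fold). The S-adenosylmethionine decarboxylase genes SAMDC1, SAMDC2 and SAMDC3, which supply polyamine synthesis, passed in none of the 11 comparisons. Over all kept probe sets 0% to 6.47% passed. SAMDC3 stood 1.89-fold higher with OPDA than with solvent in tga2-5-6 (0.92 ± 0.26, limma, adjusted p = 0.034), under the 2-fold threshold. SAMDC1 averaged 13280 ± 793 in tga2-5-6 with PPA1 and 15539 ± 2312 in Col-0 with PPA1 (SD, n = 3 each). That log2 difference was -0.22 (limma, adjusted p = 0.522). With PPA1, SAMDC2 and SAMDC3 differed between the genotypes the other way, by 0.37 and 0.15 (limma, adjusted p = 0.532 and 0.874).

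Genes beside OCT5 on chromosome 1 were read for the same genotype comparisons. Of the 5 genes to each side, AT1G79390 (2 genes before OCT5) and AT1G79420 (the next gene) had a kept probe set of their own. AT1G79390 differed between tga2-5-6 and Col-0 by -0.40 ± 0.16 with PPA1 (adjusted p = 0.315), -0.28 ± 0.16 with OPDA (adjusted p = 0.567) and 0.09 ± 0.16 with solvent (adjusted p = 0.872). AT1G79420 differed by 0.01 ± 0.27 with PPA1 (adjusted p = 0.991), 0.30 ± 0.27 with OPDA (adjusted p = 0.742) and 0.69 ± 0.27 with solvent (adjusted p = 0.326). None passed, where 1.57% of all kept probe sets passed with PPA1, 0.787% with OPDA and 0.535% with solvent. Every one of these values lay more than 1 log2 unit from that of OCT5.

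The 10 nearest genes with a kept probe set, 5 to each side, lay at positions -24 to 20, counted in genes from OCT5. They passed in 0 of the 11 comparisons with limma, where 0% to 6.47% of all kept probe sets passed. At an unadjusted p under 0.05 there was 1 with PPA1, 0 with OPDA and 1 with solvent between the genotypes. Their differences ranged over -1.10 to 0.03 with PPA1, -0.28 to 0.99 with OPDA and -0.35 to 0.69 with solvent.

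**Figure D4:**
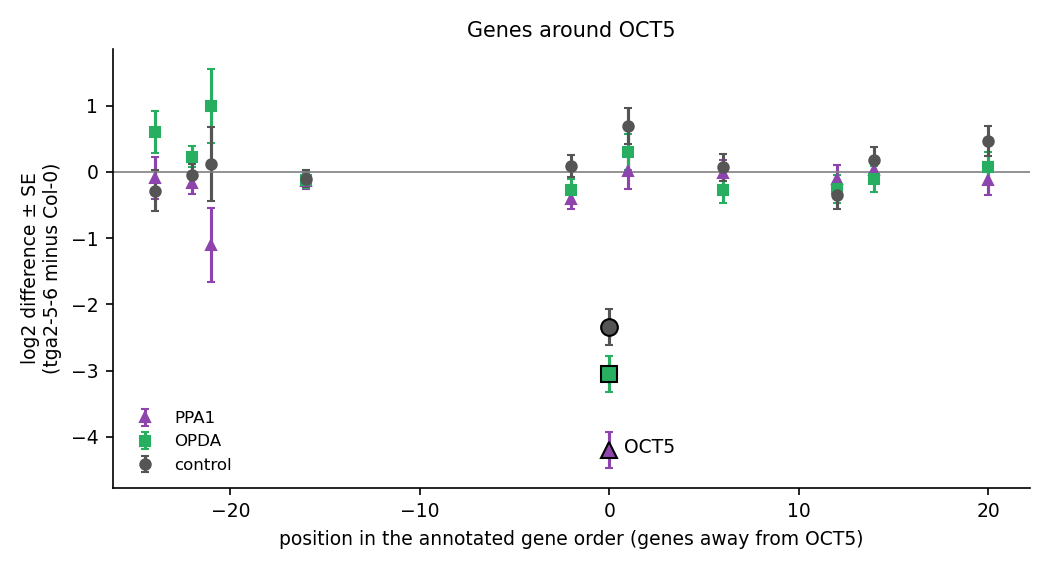
Log2 difference ± SE of tga2-5-6 minus Col-0 with PPA1, OPDA and solvent (control) for OCT5 and its 10 nearest measured genes, by position in the gene order of chromosome 1. OCT5 lies at -2.34 to -4.20, and the other genes lie between -1.10 and 0.99.

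The genes most like OCT5 were ranked by the Pearson correlation of their log2 values with it over the 18 arrays. Among 12847 other probe sets with 1 gene, 8 reached over 0.9 and 25 over 0.8, and 43 lay under -0.8, with a median of 0.00573. The 18 points share 6 groups and the array scaling, so these values describe group patterns and carry no test. Deviations from the group means, given below where named, show how far likeness went beyond the groups.

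AER, which encodes an alkenal reductase that acts on reactive carbonyls, was the most like (r = 0.965). It averaged 405 ± 40.3 in tga2-5-6 and 4770 ± 490 in Col-0 with PPA1 (SD, n = 3 each). With OPDA it averaged 308 ± 72.1 in tga2-5-6 and 1954 ± 297 in Col-0, and with solvent 455 ± 43.7 in tga2-5-6 and 1063 ± 306 in Col-0. Its relative AT5G16980, the next locus, was the third, with r = 0.942 after UGT74D1, and averaged 27.6 ± 2.55 in tga2-5-6 and 957 ± 215 in Col-0 with PPA1. Both genes stood higher with PPA1 than with solvent in Col-0, AER by 2.20 and AT5G16980 by 2.33 on the log2 scale, but lay at -0.17 and -0.95 in tga2-5-6. With OPDA in Col-0, AER stood 0.91 higher and AT5G16980 0.07, on either side of the 0.45 of OCT5.

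The glucosyltransferase genes UGT74D1 (r = 0.953) and IAGLU (r = 0.915), whose enzymes attach glucose to auxins, and the glycosyltransferase gene UGT73B1 (r = 0.890) were also among the 10. IAGLU averaged 330 ± 25.2 in tga2-5-6 and 1871 ± 689 in Col-0 with PPA1, and 257 ± 5.29 in tga2-5-6 and 473 ± 21.8 in Col-0 with solvent. UGT74D1 had a smaller span, with a Col-0 difference of 0.77 for PPA1 against solvent. In tga2-5-6, UGT73B1 read 93.6, 84.0 and 155 with PPA1 and 80.8, 13.8 and 118 with solvent. These arrays overlapped, and the log2 difference of 1.07 includes the second solvent replicate, which read under 16.

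GSTU25, a tau-class glutathione S-transferase that conjugates electrophiles to glutathione, had r = 0.892. It averaged 158 ± 83.1 in tga2-5-6 and 6660 ± 734 in Col-0 with PPA1, and its Col-0 difference from solvent was 4.74 with PPA1 and 3.58 with OPDA. Both lie above the OCT5 values of 1.87 and 0.45. In tga2-5-6, GSTU25 read 251, 131 and 91.4 with PPA1 and 71.4, 71.5 and 19.96 with solvent, a log2 difference of 1.63, where OCT5 had 0.02. The others were AT1G21680 (r = 0.924), AT5G10830 (r = 0.923), AT1G17860 (r = 0.907), a member of the Kunitz trypsin inhibitor family, and AT5G07860 (r = 0.902).

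Within one genotype the likeness split. Over the 9 Col-0 arrays the 10 genes correlated with OCT5 at 0.803 to 0.988, with AT5G07860 and IAGLU at the top. Over the 9 tga2-5-6 arrays, where OCT5 spans little, the values ran from -0.324 for GSTU25 to 0.803 for UGT73B1. As deviations from the group means, UGT73B1 (0.780) and AT5G07860 (0.756) had the highest values, with AER at 0.187, AT5G16980 at -0.109 and GSTU25 at -0.518. With 6 group means in place of 18 arrays, 4 of the 10 stayed among the 10 most like.

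The 5 genes most unlike OCT5 had higher levels in tga2-5-6. They were AT2G43610, of the chitinase family (r = -0.934), ECS1, a cell wall protein gene (-0.914), AT5G44820 (-0.909), AT1G13750 (-0.901) and OSM34, an osmotin-like defence protein gene (-0.888). ECS1 averaged 19191 ± 2807 in tga2-5-6 and 2331 ± 943 in Col-0 with PPA1, and 18491 ± 2610 in tga2-5-6 and 2293 ± 105 in Col-0 with solvent. Its Col-0 difference for PPA1 against solvent was -0.05, so it mirrored the genotype step of OCT5 and not its PPA1 step. OSM34 mirrored both in sign, with 1.41 for tga2-5-6 against Col-0 with PPA1 and -0.71 for PPA1 against solvent in Col-0. AT2G43610, AT5G44820 and AT1G13750 had the same signs, with -0.47, -0.54 and -0.38 for PPA1 against solvent in Col-0. For AT5G44820 and AT1G13750 those PPA1 and solvent arrays overlapped. The 5 genes were picked for negative correlation with OCT5 on these same arrays, so their higher mutant levels and opposite signs are no finding. OSM34 fell further with OPDA (-0.86 against solvent in Col-0), whereas the larger step of OCT5 was with PPA1.

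**Figure D5:**
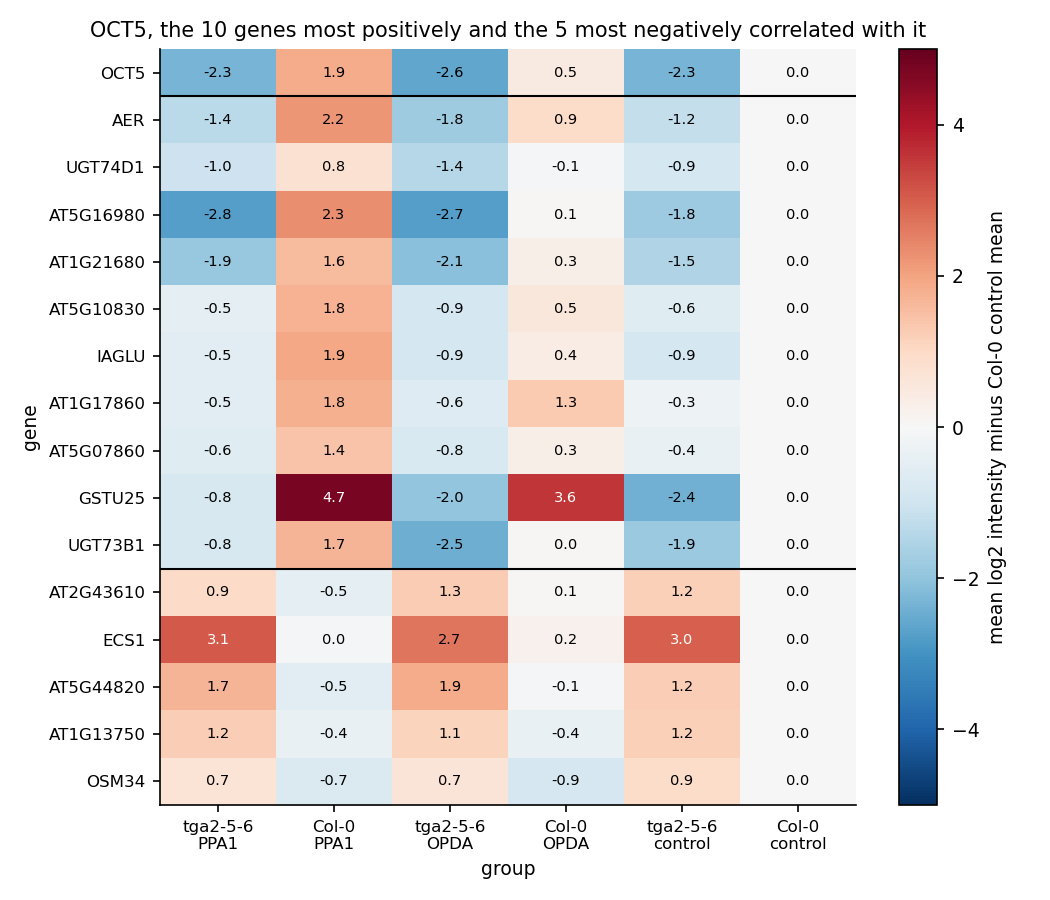
Mean log2 intensity in each group minus the mean of Col-0 with solvent, for OCT5, the 10 genes with the highest and the 5 with the lowest correlation with it. OCT5 and the 10 are highest in Col-0 with PPA1, where GSTU25 reaches 4.74, and the 5 unlike genes are higher in all 3 mutant groups.

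Since no organ is named, leaf and root markers were read in the same samples. Of 22 markers 5 had a kept probe set of their own: RCA (Rubisco activase) and PRK (phosphoribulokinase) for leaf, and EXPA7, EXPA18 (expansins of root hairs) and AT3G12900 for root. AT3G12900 read under 16 on most arrays, and the other 4 read higher. Between the genotypes 0 of 5 passed with any treatment (limma), with 0 with PPA1, 2 with OPDA and 1 with solvent at an unadjusted p under 0.05. Over all kept probe sets 1.57% passed with PPA1, 0.787% with OPDA and 0.535% with solvent, so few or no calls among 5 genes carry little information. The summed root markers were 155 to 300 in tga2-5-6 and 172 to 235 in Col-0 with PPA1, 200 to 263 in tga2-5-6 and 168 to 222 in Col-0 with OPDA, and 621 to 961 in tga2-5-6 and 620 to 1108 in Col-0 with solvent. The summed leaf markers were 22354 to 24129 in tga2-5-6 and 23637 to 28133 in Col-0 with PPA1, 17232 to 20533 in tga2-5-6 and 22773 to 28806 in Col-0 with OPDA, and 23555 to 28006 in tga2-5-6 and 26060 to 32063 in Col-0 with solvent. The root sums thus moved with the compounds in both genotypes. AT3G12900 added most on Col-0 PPA1 replicate 3, where it read 35.8 of a sum of 172. The leaf sums of the genotypes did not overlap with OPDA. PRK by itself read lower on all mutant arrays than on all Col-0 arrays with each treatment. Its log2 difference was -0.30 with PPA1, -0.61 with OPDA and -0.72 with solvent (limma, adjusted p = 0.657, 0.306 and 0.215). Such a separation was found for 9.39% of kept probe sets with PPA1, 7.82% with OPDA and 7.73% with solvent. EXPA18 fell with PPA1 by a log2 difference of -2.09 in tga2-5-6 and -1.95 in Col-0, and with OPDA by -2.32 in tga2-5-6 and -2.27 in Col-0. The EXPA7 means were also lower with each compound in both genotypes. AT3G12900 had the opposite sign with PPA1, at 0.79 in tga2-5-6 and 0.77 in Col-0, with overlapping arrays (limma, adjusted p = 0.508 and 0.604). With OPDA it differed by -1.99 in tga2-5-6 and -0.35 in Col-0. The part of the leaf and root markers in the OCT5 levels was not tested.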

How the data were processed

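The authors deposited a table of linear-scale intensities with 1 value for each probe set on each array. The submitters' processing notes name GCRMA, which gives log2 values; the deposited intensities are not log2 values, and how they were made is not given in the sources used here. Gene names came from the platform annotation, with current symbols and gene order from the reference annotation TAIR10.1. The table has 22810 probe sets, of which 64 are array controls and were dropped. The annotation gives 13513 probe sets 1 gene, 503 several and 8730 none.

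Values under 1 were set to 1 and log2-transformed with no further normalization. A probe set was kept where 3 or more arrays read 16 or more (21869, of which 12848 have 1 gene). One model of the 6 group means over 18 arrays was fitted in R 4.3.3 using limma 3.58.1 (12 residual and 1.50 prior degrees of freedom), with Benjamini-Hochberg adjustment over all kept probe sets. A call needed an adjusted p under 0.05 and at least 2-fold. Counts at an unadjusted p under 0.05 have no share of all kept probe sets beside them, since that share was not counted. The code was tested on simulated data.

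Named are OCT5, measured OCT family members, the called list member with the largest change each way, the 10 most and 5 least correlated genes, and measured neighbours within 5 genes. SAMDC1, SAMDC2 and SAMDC3 were named after their values were seen. OCT5 and the lists were chosen with earlier results of these data known. Alternatives were another floor, median centring, quantile normalization, no filter, a replicate block and leaving out each array. P-values rest on replicates that the labels call independent, with no source named.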

Additional observations from a re-analysis of the deposited data

How the results depend on the processing

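The OCT5 differences between the genotypes and within Col-0 kept their direction under another floor, no filter, median centring, quantile normalization, the replicate block and each array left out. In tga2-5-6, where the OCT5 readings of the treatments overlapped, quantile normalization gave 0.37 in place of 0.02 for PPA1 against solvent and 0.10 in place of -0.26 for OPDA. Leaving out single arrays gave -2.54 to -1.98 for tga2-5-6 against Col-0 with solvent, -0.34 to 0.22 for PPA1 and -0.62 to -0.059 for OPDA against solvent in tga2-5-6, -2.22 to -1.66 for the difference in PPA1 response and -1.07 to -0.51 for that in OPDA response. Leaving out replicate 2 of tga2-5-6 with solvent set an end of each range, and leaving out replicate 3 of that group set the opposite end.

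OCT4 passed with OPDA in Col-0 after median centring (1.04, adjusted p = 0.0164) or quantile normalization (1.01, adjusted p = 0.0187), 1 family gene in place of 0, and 0 to 1 with arrays left out. Listed carriers and polyamine genes that passed with OPDA in tga2-5-6 were 2 with median centring, 1 with quantile normalization and 0 to 1 with arrays left out, in place of 0. Median centring added DTX14 (1.03, adjusted p = 0.0243) and SAMDC3 (1.01, adjusted p = 0.0158), and quantile normalization added DTX14. With arrays left out, the gene that passed was DTX14 or SAMDC3. With PPA1 in Col-0 they were 2 with a floor of 16, 2 with the replicate block and 1 to 2 with arrays left out, in place of 1, DTX3 being added. For the neighbours, leaving out Col-0 OPDA replicate 1 gave 1 call between the compounds in Col-0 in place of 0, a range of 0 to 1. Over the 6 group means 4 of the 10 most like genes stayed.

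Over all probe sets, the calls for the difference in PPA1 response were 26 with a floor of 16, 0 with quantile normalization, 1 with the replicate block and 0 to 7 with arrays left out, in place of 2. Those for the OPDA response were 5 with a floor of 16 and 0 to 3 with arrays left out, in place of 0. Leaving out arrays brought the genotype calls to as few as 43 with solvent and 113 with OPDA, and the PPA1 calls to as few as 361 in tga2-5-6 and 351 in Col-0. The share of calls that were higher was 68.6% for OPDA in Col-0 with median centring, in place of 57.5%. For PPA1 in tga2-5-6 it was 63.1% with median centring and 67.2% with quantile normalization, in place of 52.7%, and for OPDA 63.5% and 66.1%, in place of 52.6%. Between the genotypes it was 39.7% to 59.0% with solvent, in place of 55.6%, and 37.3% to 56.3% with OPDA, in place of 48.8%, with arrays left out. The cause of these shifts was not tested. Same-numbered replicates shared only a number: over 45 pairs of groups and numbers, correlations of deviations were -0.0539 to 0.0673, and the replicate block changed no other call named here. Low readings such as those of OCT1 limit what can be measured.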
